A study of Homo sapiens with 6 samples.

Results

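Wnt inhibitors and planar polarity genes were followed as 10 named genes, of 14232 genes with a probe set of their own, in HCC827 cells grown in 3D or in 2D. HCC827 is an established human lung adenocarcinoma line that carries an activating exon deletion in EGFR, and all arrays came from this line without drug treatment. The 3D group holds 3 arrays of hanging drop spheroids that the labels give as Matrigel embedded, and the study's methods describe an embedding matrix that also held collagen. The study's text calls the arrayed cultures spheroids, a word it also uses for freely floating ones, and the labels were followed here. The 2D group holds 3 arrays of cells on uncoated plastic, so that by the labels dimensionality and matrix differed together and cannot be told apart. Total RNA was extracted, amplified, labelled and hybridised as antisense RNA to Affymetrix human exon arrays, whose RMA signals are background-corrected, normalized and on a log2 scale, where a difference of 1 is a doubling.

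The genes were chosen by name with their 3D and 2D signals already known, 5 as Wnt inhibitors and feedback genes (DKK1, DKK3, SFRP1, AXIN2 and TCIM) and 5 as planar polarity genes (PRICKLE1, PRICKLE2, VANGL1, FAT4 and DCHS1). Their differences between 3D and 2D are therefore a description, and whether they passed the test used for all genes is given as no evidence about them. All 10 genes had a probe set annotated to that gene alone, and 0 had to be read from a probe set shared with another gene. DKK3, AXIN2 and VANGL1 had a pair of probe sets each, of which the brighter over the 6 arrays stood for the gene. Pearson's r across probe sets was 0.956 to 0.974 among 3D arrays and 0.980 to 0.987 among 2D arrays, and 3D replicate 2 stood apart with the lowest array weight, 0.31. The bulk RNA of these cultures cannot part fewer cells with a transcript from less transcript per cell.

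Canonical Wnt signaling starts when a secreted Wnt protein joins a Frizzled receptor to an LRP5 or LRP6 coreceptor, which halts the complex that destroys beta-catenin and lets beta-catenin drive transcription with TCF/LEF factors. Secreted inhibitors act at the surface, and some target genes, AXIN2 foremost, encode proteins that restore the destruction of beta-catenin and so close a feedback loop. Planar cell polarity uses Frizzled receptors without beta-catenin. It aligns epithelial cells within their sheet through a core group, in which VANGL and PRICKLE proteins sit on the opposite cell side from Frizzled and Dishevelled, and through the giant cadherins of the Fat and Dachsous families, which bind each other across cell borders.

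Upstream sequences are shown for 3 of the genes, since DKK1 and PRICKLE1 had lower signals in 3D and PRICKLE2, the close relative of PRICKLE1, did not. Each run holds the 250 bases before a transcription start in RefSeq (GRCh38.p14), read 5' to 3' on the gene's strand, and capitals mark the letters CTTTGA, a core of the TCF/LEF binding motif, or their reverse complement TCAAAG.
DKK1 (chr10:52314031-52314280, + strand): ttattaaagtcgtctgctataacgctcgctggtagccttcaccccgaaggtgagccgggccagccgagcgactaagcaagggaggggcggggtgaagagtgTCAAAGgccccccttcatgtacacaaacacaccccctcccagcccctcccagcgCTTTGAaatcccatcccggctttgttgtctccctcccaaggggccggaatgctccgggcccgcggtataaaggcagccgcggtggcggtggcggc
PRICKLE1 (chr12:42483616-42483865, - strand): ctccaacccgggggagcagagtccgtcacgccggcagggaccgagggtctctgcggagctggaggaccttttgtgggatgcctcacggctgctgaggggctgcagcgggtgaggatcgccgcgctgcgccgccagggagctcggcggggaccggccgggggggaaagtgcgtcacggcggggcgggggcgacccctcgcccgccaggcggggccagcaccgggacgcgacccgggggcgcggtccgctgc
PRICKLE2, first listed start (chr3:64225467-64225716, - strand): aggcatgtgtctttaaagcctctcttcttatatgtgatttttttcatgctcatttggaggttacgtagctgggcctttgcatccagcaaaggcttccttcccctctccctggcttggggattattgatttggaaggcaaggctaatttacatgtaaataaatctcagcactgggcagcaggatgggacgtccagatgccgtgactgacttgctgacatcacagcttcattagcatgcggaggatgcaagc
PRICKLE2, other listed start (chr3:64268174-64268423, - strand): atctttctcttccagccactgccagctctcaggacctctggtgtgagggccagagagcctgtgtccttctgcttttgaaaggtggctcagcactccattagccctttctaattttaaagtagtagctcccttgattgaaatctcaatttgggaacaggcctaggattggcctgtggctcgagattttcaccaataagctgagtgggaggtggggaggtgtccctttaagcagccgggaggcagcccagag
The DKK1 sequence held 2 matches, which began 149 and 95 bases before the start, and the other sequences shown held 0. The PRICKLE1 start shown lies inside the annotated span of the gene (bases 42456757 to 42589746), so it is not the outermost start. Both upstream sequences listed for VANGL1 held 0 as well. Over all 35116 listed sequences of this length, 11.2% held at least 1 match and 0.977% held 2 or more. The matches are a description of these letters and no evidence of binding. Upstream sequences were read for 4 of the 10 genes, namely DKK1, PRICKLE1, PRICKLE2 and VANGL1. Those of the other genes were not examined, so the matches cannot be compared over both sets.

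Both sets held genes with separate 3D and 2D signals and genes with overlapping signals. DKK1, PRICKLE1 and FAT4 had lower signals in 3D, TCIM had a higher signal in 3D, and in each of these 4 genes the 3D arrays did not overlap with the 2D arrays. The signals of DKK3, SFRP1, AXIN2, PRICKLE2, VANGL1 and DCHS1 overlapped between the groups. In a limma fit over all 22011 probe sets these 4 genes were past an adjusted p of 0.05 (Benjamini and Hochberg's method), 1 higher and 3 lower in 3D. Over the 14232 genes the fit put 0.408% past this threshold, 0.162% higher and 0.246% lower, and the groups did not overlap in 24.1%, with 3D above in 14.3% and below in 9.75%. Since the genes were picked from this contrast, nothing is read from their count. All 4 genes lost this call together when any 2D array or 3D replicate 1 was left out, as did nearly all genes, with 0 to 7 probe sets called in these fits against 84 in the full fit. Without 3D replicate 2 the 4 genes kept the call.

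**Figure D1:**
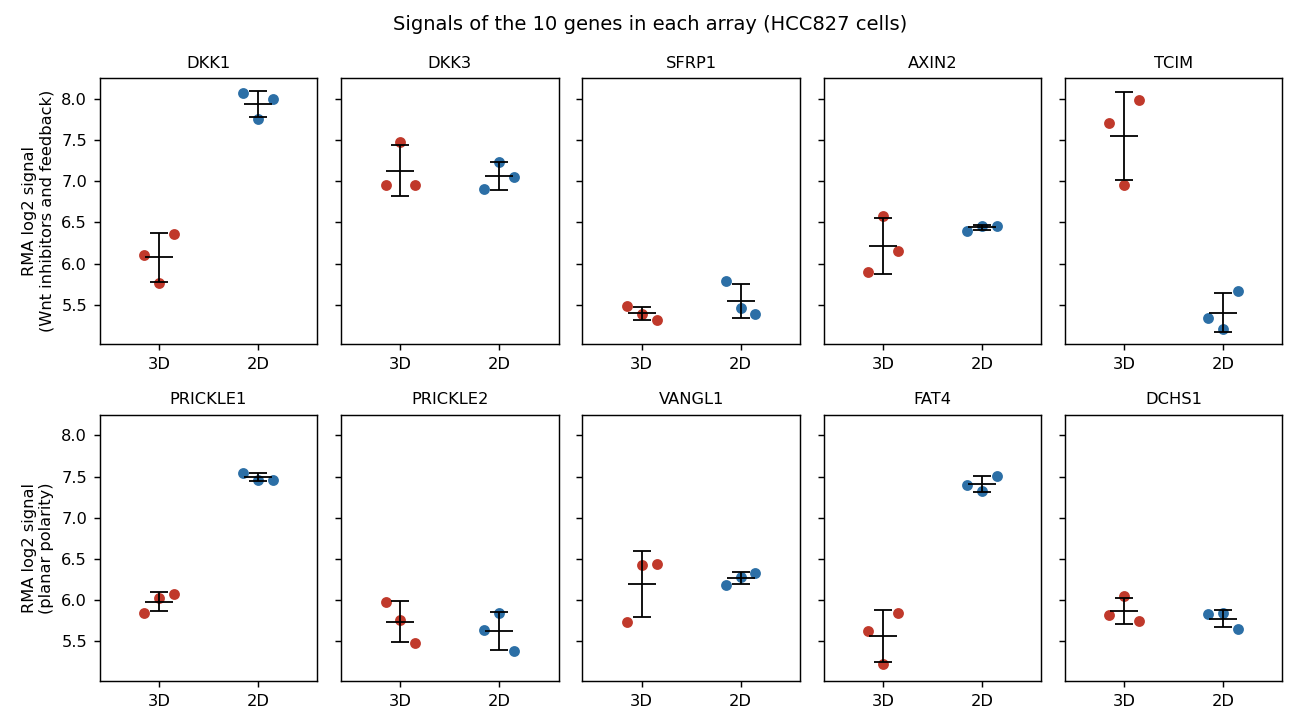
Signal (RMA, log2) of each of the 10 genes in the 3 arrays of 3D (red) and the 3 arrays of 2D (blue), with the mean and SD of each group in black and replicates 1 to 3 from left to right. DKK1, PRICKLE1 and FAT4 lie lower in 3D, TCIM lies higher, and the groups overlap in the other 6 genes.

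DKK1 encodes Dickkopf 1, a secreted protein that binds LRP5 and LRP6 and keeps them from the Wnt receptor complex. Its signal was 6.11, 5.76 and 6.36 in the 3D replicates 1 to 3, against 8.06, 7.75 and 7.99 in the 2D replicates. Every 3D array lay below every 2D array. The means were 6.08 ± 0.30 in 3D and 7.94 ± 0.16 in 2D (SD, n = 3 each), a log2 difference of -1.86 (3D minus 2D, standard error 0.19), which is 3.63-fold lower in 3D. Of all 14232 genes DKK1 had the difference ranked 8 from the lowest, and it stayed between -2.0 and -1.70 when single arrays were left out.

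DKK3, a divergent member of the Dickkopf family whose part in Wnt signaling is debated, did not share this difference. Its brighter probe set gave 6.95, 7.48 and 6.95 in 3D, against 6.90, 7.23 and 7.05 in 2D. The highest 3D array and the highest 2D array were both replicate 2, and the groups overlapped. The log2 difference was 0.065 (standard error 0.20). The dimmer DKK3 probe set gave 4.81, 4.63 and 5.13 in 3D, against 5.32, 5.53 and 5.18 in 2D, where every 3D array was below every 2D array (log2 difference -0.49, standard error 0.19). The brighter probe set had no stable direction, since its difference turned to -0.11 when 3D replicate 2 was left out and to -0.016 when this was done with 2D replicate 1, and the sources used here do not say which part of the gene each covers.

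SFRP1 encodes a secreted Frizzled-related protein that binds Wnt proteins outside the cell. Its signal was 5.48, 5.39 and 5.32 in 3D, against 5.79, 5.46 and 5.39 in 2D. The 3D arrays lay close together and overlapped with 2D replicates 2 and 3 (log2 difference -0.15, standard error 0.16). The difference shrank to -0.028 without 2D replicate 1, the highest array. SFRP1 was dim, at percentile 31.8 of mean signal over all probe sets, and no call against background came with the signals.

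AXIN2 encodes a scaffold of the destruction complex and is itself transcribed in response to beta-catenin, for which it is widely used as a readout. Its brighter probe set gave 5.90, 6.58 and 6.16 in 3D, against 6.40, 6.46 and 6.46 in 2D. The 3D arrays spread widely (SD 0.34) around the 2D arrays, which differed by little (SD 0.036), with 3D replicate 2 above every 2D array and the other 3D arrays below. The log2 difference was -0.23 (standard error 0.20). The dimmer AXIN2 probe set gave 5.54, 5.74 and 5.70 in 3D, against 5.22, 5.39 and 5.07 in 2D, and here every 3D array was above every 2D array (log2 difference 0.44, standard error 0.16). Averaged over both probe sets the difference was 0.11, so that the sign of AXIN2 depended on the probe set.

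TCIM encodes a small protein that binds Chibby, a repressor of beta-catenin, and relieves its block. It therefore acts for Wnt signaling and not as an inhibitor, although it stands with the inhibitors here. Its signal was 7.71, 6.96 and 7.99 in 3D, against 5.34, 5.21 and 5.67 in 2D. Every 3D array was above every 2D array, and the spread among 3D arrays was wide, at 0.53 (SD, n = 3) against 0.24 in 2D. The log2 difference was 2.14 (standard error 0.28), which is 4.42-fold higher in 3D, ranked 10 from the highest of all genes, with values of 1.93 to 2.44 when single arrays were left out. The 2D signal of TCIM was low and no call against background was at hand, so the fold rests on a low 2D level.

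PRICKLE1 encodes a cytoplasmic LIM domain protein of the planar polarity core that binds VANGL proteins. Its signal was 5.85, 6.03 and 6.07 in 3D, against 7.55, 7.46 and 7.46 in 2D. The arrays of each group lay close together, at an SD of 0.12 for 3D and 0.047 for 2D, and the groups were far apart. The log2 difference was -1.51 (standard error 0.14), which is 2.84-fold lower in 3D, with a range of -1.55 to -1.44 without single arrays. PRICKLE2, which encodes the related protein, gave 5.98, 5.76 and 5.48 in 3D, against 5.64, 5.85 and 5.38 in 2D. These groups overlapped throughout, with a log2 difference of 0.12 (standard error 0.19) that was about 0 without 3D replicate 1 (-0.0019) or 2D replicate 3 (-0.0060).

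VANGL1 encodes a membrane protein of the core to which PRICKLE proteins bind. Its brighter probe set gave 5.73, 6.42 and 6.43 in 3D, against 6.19, 6.28 and 6.33 in 2D. The 2D arrays fell inside the span of the 3D arrays, with 3D replicate 1 low and the other 3D arrays high. The log2 difference was -0.070 (standard error 0.22), and 0.16 without 3D replicate 1. The dimmer VANGL1 probe set gave 6.20, 4.51 and 6.03 in 3D, against 6.16, 5.69 and 5.81 in 2D. Here 3D replicate 2 stood apart at the low end and the SD of 3D was 0.93 (log2 difference -0.30, standard error 0.42), so that a different 3D array was low in each of the VANGL1 probe sets.

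FAT4 encodes a giant cadherin that acts as the receptor of the Fat and Dachsous pair. Its signal was 5.63, 5.23 and 5.84 in 3D, against 7.40, 7.32 and 7.51 in 2D. All 3D arrays were below all 2D arrays, and the log2 difference was -1.84 (standard error 0.19), which is 3.59-fold lower in 3D and ranked 10 from the lowest of all genes. Its range without single arrays was -1.98 to -1.67. The 3D signal of FAT4 was low (mean 5.57), near that of SFRP1 and without a call against background, so the fold rests on a low 3D level. DCHS1 encodes Dachsous 1, the ligand of FAT4. Its signal was 5.82, 6.05 and 5.75 in 3D, against 5.83, 5.85 and 5.66 in 2D, with groups that overlapped and a log2 difference of 0.095 (standard error 0.16). The receptor gene was thus lower in 3D while the signal of the ligand gene overlapped between the groups.

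**Figure D2:**
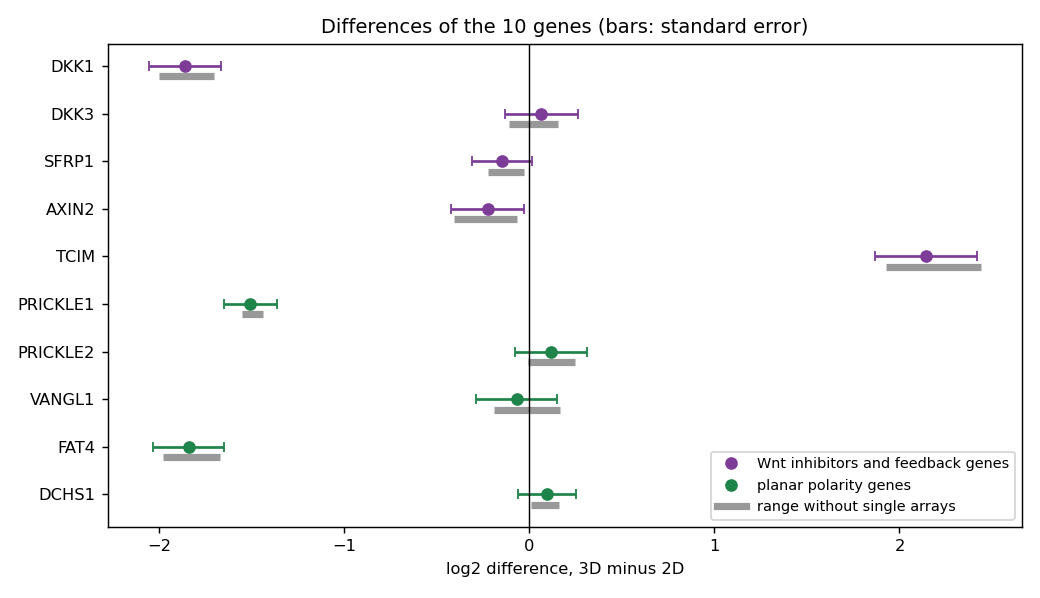
Log2 difference (3D minus 2D) of each of the 10 genes, with the standard error of the limma fit as bars and, in grey, the range of the difference when each of the 6 arrays was left out. DKK1, FAT4 and PRICKLE1 lie between -1.86 and -1.51, TCIM lies at 2.14, and the other 6 genes lie between -0.23 and 0.12.

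**Figure D3:**
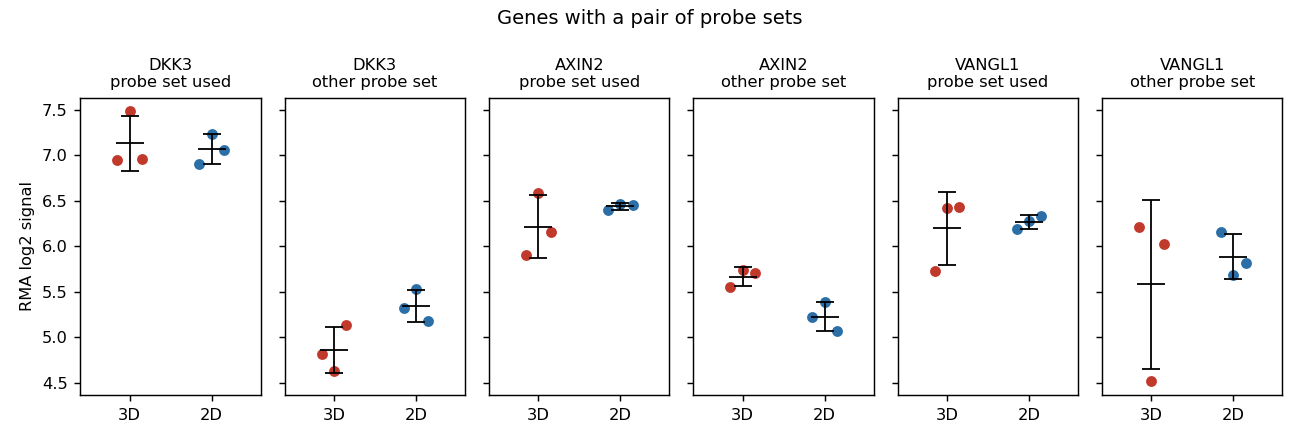
Signal (RMA, log2) in 3D (red) and 2D (blue) for both probe sets of DKK3, AXIN2 and VANGL1, with group means and SD in black and replicates 1 to 3 from left to right. The brighter and the dimmer probe set of AXIN2 point to opposite sides (log2 differences of -0.23 and 0.44), the groups overlap in the brighter DKK3 probe set and not in the dimmer (0.065 and -0.49), and 3D replicate 2 is the low array of the dimmer VANGL1 probe set.

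The contrast of both sets was taken within each array, as the mean of the 5 Wnt inhibitors and feedback genes minus that of the 5 planar polarity genes, each gene first centred on its 2D mean. It was 0.66, 0.57 and 0.68 in the 3D replicates 1 to 3, against 0.012, -0.091 and 0.080 in the 2D replicates. Hence the planar polarity set lay lower than the Wnt set in every 3D array, with a mean of 0.64 ± 0.057 in 3D (SD, n = 3) and an SD of 0.086 in 2D, where the mean is 0 by construction. The Wnt set averaged -0.0049, because DKK1 and TCIM lay far apart on either side of 0, and the planar polarity set averaged -0.64 through PRICKLE1 and FAT4. The contrast was 0.10 with TCIM left out, 1.10 with DKK1 left out, 0.42 with PRICKLE1 left out and 0.34 with FAT4 left out. By medians it turned to the other side, at -0.078, since the median gene was at -0.15 in the Wnt set and at -0.070 in the planar polarity set. The contrast thus rested on these 4 genes.

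DKK1 and FAT4 had the most similar profiles among the 10 genes, with a root mean square difference of 0.073 on the log2 scale between profiles centred on their own means over the 6 arrays. In both, 3D replicate 2 was the lowest 3D array and 3D replicate 3 the highest, as was also seen in TCIM on its higher level. Over all 14232 genes FAT4 was the closest to DKK1 and DKK1 the closest to FAT4. The next were AJUBA for DKK1, a LIM domain protein of cell junctions (0.11, log2 difference -1.80), and PHLDB2 for FAT4, a protein of the cell cortex near adhesions (0.098, log2 difference -1.85). For PRICKLE1 they were the nuclear receptor gene NR6A1 (0.11, log2 difference -1.42) and THBS1, which encodes the matrix protein thrombospondin 1 (0.11, log2 difference -1.52). For TCIM they were GPNMB, which encodes a transmembrane glycoprotein (0.16, log2 difference 2.31), and MSMB, which encodes a secreted protein (0.19, log2 difference 1.79). MSMB was dim, at percentile 11.9 of mean signal over all probe sets, with 2D signals of 3.20, 3.03 and 3.43. Its difference thus rests on a low 2D level (limma, adjusted p = 0.0661). All genes named for likeness were picked for it, and the likeness rests on 6 arrays and mostly on the step between the groups. The other 6 genes spanned at most 1 on the log2 scale and were not matched.

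Other genes of both pathways were taken from 9 lists drawn up by function, which held 146 genes, 131 of them with a probe set of their own. None of the 131 passed the test, with 0 higher and 0 lower in 3D (limma, adjusted p under 0.05), while at an unadjusted p under 0.05 the fit had 7 higher and 10 lower, against 7.46% higher and 7.12% lower (14.6% in either direction) over all genes. In 16 genes every 3D array lay above every 2D array and in 12 every 3D array lay below, against 14.3% above and 9.75% below over all genes, shares near those of the lists. With array weights 3 passed, and with dim probe sets left out 1 passed. Over the 131 genes the median difference was 0.10 on the log2 scale and over all genes it was 0.071. Of the 131 genes 84 were above 0 and 47 below 0, while of all 14232 genes 8482 were above and 5750 below. The differences of the 131 genes spanned -1.18 to 0.92, and DKK1, PRICKLE1, FAT4 and TCIM lay beyond that span. Since these members were chosen with their values known, nothing is read from this.

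**Figure D4:**
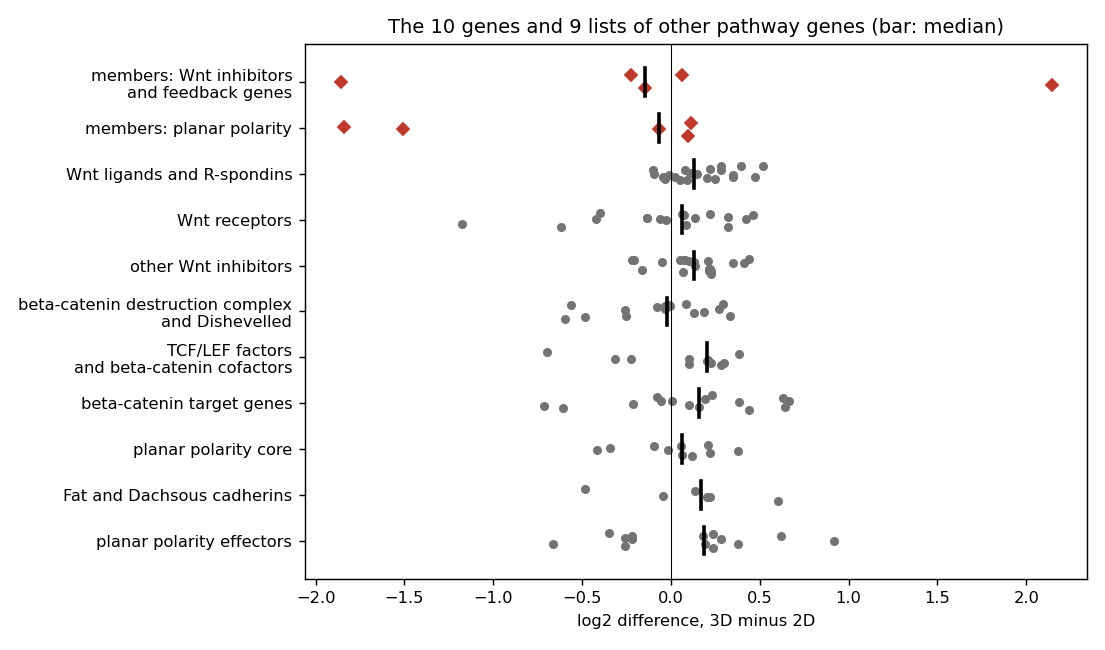
Log2 difference (3D minus 2D) of the 10 genes (red diamonds, in their 2 sets) and of the 131 other genes in 9 pathway lists (grey circles), with a bar at the median of each. All 131 other genes lie between -1.18 and 0.92, inside the span from -1.86 (DKK1) to 2.14 (TCIM).

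Of 22 measured Wnt ligands and R-spondins 0 passed, with a median of 0.13 and differences of -0.10 to 0.52. WNT9B and WNT8A had 0.52 and 0.47, and WNT7B and WNT8B had -0.10 and -0.093, each with groups that overlapped. WNT8A, WNT7B and WNT8B were dim, at percentiles 23.9, 22.7 and 30.2 of mean signal over all probe sets. Of 17 measured Wnt receptors 0 passed, with a median of 0.062. ROR1, a receptor kinase for Wnt proteins that act outside the beta-catenin pathway, had the lowest value of all lists. Its signal was 6.96, 7.15 and 7.62 in 3D, against 8.33, 8.57 and 8.35 in 2D, without overlap. The log2 difference of ROR1 was -1.18 (limma, standard error 0.20, adjusted p = 0.0661), and its adjusted p was 0.0377 with dim probe sets left out, 0.0314 with array weights and between 0.0395 and 0.271 without single arrays. The Frizzled gene FZD5 had -0.62 (limma, adjusted p = 0.25) and FZD2 had 0.46 (limma, adjusted p = 0.349). LGR4, a receptor of R-spondins, had 0.42 (limma, adjusted p = 0.335). The FZD5 value came from its brighter probe set, and the mean over its probe sets gave a smaller difference of -0.20.

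Of 20 other measured Wnt inhibitors 0 passed, with 0 higher and 0 lower also at an unadjusted p under 0.05 and a median of 0.13. The largest values were 0.44 for CER1, a secreted antagonist, and 0.41 for CTNNBIP1, which keeps beta-catenin from TCF factors. The lowest were -0.22 for DKK4 and -0.21 for SOSTDC1. In each of these genes the groups overlapped. CER1, DKK4 and SOSTDC1 were dim, at percentiles 18.6, 24.3 and 10.7 of mean signal over all probe sets, without a call against background. DKK1, which was chosen with its value known, had the lowest value among the measured inhibitors. Of 16 measured genes of the destruction complex and Dishevelled 0 passed. CTNNB1, which encodes beta-catenin itself, had signals of 9.15, 9.07 and 9.31 in 3D, against 8.92, 8.84 and 8.90 in 2D, without overlap but 0.29 higher on the log2 scale (limma, standard error 0.14, adjusted p = 0.378). CSNK1A1, a kinase that marks beta-catenin for destruction, and TNKS, which destabilises axin, had -0.60 and -0.56. AMER1, a scaffold that binds APC, had 0.33. For CSNK1A1 this was the brighter probe set, and the mean over its probe sets gave a smaller difference of -0.33.

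Of 11 measured TCF/LEF factors and cofactors 0 passed. TCF7L2, which encodes the TCF factor most tied to beta-catenin in epithelia, gave 6.94, 7.11 and 6.99 in 3D, against 7.67, 7.63 and 7.83 in 2D. The groups did not overlap, with a log2 difference of -0.70 (limma, standard error 0.15, adjusted p = 0.105, and 0.0428 with array weights). BCL9, a cofactor of beta-catenin, had -0.31, its partner PYGO1 had 0.38 and LEF1 had 0.30. The groups overlapped in PYGO1 and LEF1. The PYGO1 difference was 0.028 without 3D replicate 2, and LEF1 was dim, at percentile 22.1 of mean signal over all probe sets. Of 15 measured target genes of beta-catenin 0 passed, with a median of 0.16. PPARD and BMP4 had -0.71 and -0.61, and the protease gene MMP7 and ID2 had 0.66 and 0.64, all 4 without overlap between the groups. BMP4, MMP7 and ID2 were dim, at percentiles 21.9, 18.2 and 13.1 of mean signal over all probe sets, without a call against background. Of the 15 genes 10 were above 0 and 5 below. In 3 every 3D array lay above every 2D array and in 2 every 3D array lay below, against 14.3% and 9.75% of all genes. Besides MMP7 and ID2 the higher ones included JAG1, at 0.63 (limma, adjusted p = 0.143) and percentile 57.1 of mean signal. Target genes thus lay on both sides of 0, as the probe sets of AXIN2 did.

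Of 10 measured genes of the planar polarity core 0 passed, with a median of 0.061 and values of -0.42 (SMURF1, which in mice marks PRICKLE1 for degradation) to 0.38 (SCRIB, a scaffold that binds VANGL proteins). SEC24B, which in mice exports VANGL2 from the endoplasmic reticulum, had -0.34, and the cadherin gene CELSR2 had 0.22. The measured core genes had smaller differences than PRICKLE1, which was chosen with its value known. Of 6 measured genes of the Fat and Dachsous list 0 passed. FAT1, the relative of FAT4, gave 9.14, 9.24 and 9.50 in 3D, against 9.70, 9.81 and 9.81 in 2D, also without overlap but with a smaller log2 difference of -0.48 (limma, standard error 0.16, adjusted p = 0.239). FJX1, the relative of a fly kinase that tunes the binding of Fat and Dachsous cadherins, had -0.043, and LIX1L and LIX1, relatives of a factor of this pathway in flies, had 0.60 and 0.22.

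Of 14 measured planar polarity effectors 0 passed, with a median of 0.19. RHOU, a small GTPase, had the highest value of all lists, with signals of 7.73, 7.81 and 7.48 in 3D, against 6.65, 7.09 and 6.53 in 2D. The groups did not overlap, with a log2 difference of 0.92 (limma, standard error 0.20, adjusted p = 0.111, and 0.0439 with array weights). DAAM1, a formin that binds Dishevelled, had 0.62 (limma, adjusted p = 0.17), also without overlap. The ciliary genes CPLANE1 and INVS had -0.67 and -0.35, with groups that overlapped in both. CPLANE1 gave 7.43, 6.05 and 7.41 in 3D, against 7.76, 7.31 and 7.81 in 2D, so that 3D replicate 2 stood apart. Without single arrays its difference lay between -0.90 and -0.21.

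The arrays carried the markers of an epithelial line. Of 10 epithelial markers all had lower mean signals in 3D, with 0 past the test, and their summed log2 signals were 91.1 to 93.3 in 3D, against 97.1 to 98.2 in 2D. In 7 of them every 3D array lay below every 2D array, against 9.75% of all genes. At an unadjusted p under 0.05 (limma) 6 were lower, against 7.12% of all genes. KRT19 had the largest difference, at -1.16, and EPCAM had -0.18. Of 9 measured fibroblast markers all had a higher mean in 3D by 0.098 to 0.41, with 0 past the test and summed signals of 45.6 to 47.4 in 3D, against 43.9 to 45.6 in 2D. Over all 14232 genes 8482 had a higher mean in 3D. Endothelial markers (7) and leukocyte markers (6) also had 0 past the test, with sums of 36.0 to 36.7 in 3D and 35.3 to 35.7 in 2D for the endothelial list, and of 34.7 to 36.9 in 3D and 33.9 to 34.4 in 2D for the leukocyte list. Of the endothelial markers 5 had a higher mean in 3D and 2 a lower, and of the leukocyte markers 5 had a higher and 1 a lower. CD14 and CSF1R were 0.71 and 0.43 higher in 3D without overlap (limma, adjusted p = 0.144 and 0.297), while the other leukocyte markers overlapped. Among these CD68 was bright, with means of 9.66 in 3D and 9.81 in 2D. The part of these shifts in the values above was not tested.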

How the data were processed

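RNA of HCC827 cells in 3D (3 arrays) and 2D (3 arrays) was measured on human exon arrays. The deposited values are log2 signals that the authors made by RMA with oligo (version not given in the sources used here), 1 per transcript cluster. They were used as given, since all 6 arrays had an equal distribution. The members and gene lists were chosen with earlier results of these data known. Each gene was read from a probe set annotated to it alone, the brightest over the 6 arrays if there were several, and 10 of 10 members matched RefSeq by Entrez ID. limma 3.58.1 (R 4.3.3) fitted 3D minus 2D, 2-sided, and Benjamini and Hochberg's adjustment took in all probe sets, with 0.05 as threshold. The fit was tested on simulated data. Listed genes were named where they passed the test or were among the 2 largest differences per list and direction, with JAG1 named besides. Likeness was computed for members spanning over 1 on the log2 scale, and 2 genes were named for each. Other settings tried were leaving out dim probe sets (below percentile 40), an intensity trend, a robust prior, array weights, a replicate block, leaving out single arrays, a threshold of 0.01 and 1 probe set per gene. Labels do not say whether replicates were separate cultures, so p-values reflect the spread of these arrays alone, possibly a technical one, and the number of arrays limits the precision. The array annotation gives no build, and upstream sequences come from RefSeq. Plots were made in Python 3.11.15 with matplotlib 3.10.9.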

Additional observations from a re-analysis of the deposited data

How the results depend on the processing

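The directions of DKK1, PRICKLE1, FAT4 and TCIM held without single arrays, which follows from groups that do not overlap. Arrays centred on their medians gave the same values for all genes, since the arrays already had an equal distribution. Neither outcome is therefore a check of these values. The contrast of the Wnt set minus the planar polarity set was 0.64 and lay between 0.59 and 0.68 without single arrays, but it reversed to -0.078 with medians over the genes. It was 1.10, 0.10, 0.42 and 0.34 with DKK1, TCIM, PRICKLE1 or FAT4 left out, an alternative chosen after seeing the data. The sign of AXIN2 turned to 0.11 and that of DKK3 to -0.21 with the mean over both probe sets. Without single arrays DKK3 lay between -0.11 and 0.15, PRICKLE2 between -0.0060 and 0.24, VANGL1 between -0.19 and 0.16, WNT7B between -0.38 and 0.16, WNT8B between -0.25 and 0.095, SOSTDC1 between -0.58 and 0.21 and FJX1 between -0.19 and 0.17. Of all probe sets 84 were called, 32 higher and 52 lower in 3D. The counts were 415 (132 higher, 283 lower) with array weights, 152 (105 lower) with dim probe sets left out, 185 (58 higher, 127 lower) with 1 probe set per gene tested and 0 (0 higher, 0 lower) at a threshold of 0.01. Without single arrays they lay between 0 and 150, with 0 to 72 higher and 0 to 122 lower. Leaving out any 2D array gave 0, and leaving out the 3D replicates 1 to 3 gave 7, 150 and 145. Of the 131 other pathway genes 0 were called, against 3 (1 higher, 2 lower) with array weights, 1 (lower) with dim probe sets left out, 1 (lower) with 1 probe set per gene tested and 0 to 1 (lower) without single arrays, where 0 were higher. The cause of these changes was not tested, beyond the smaller number of probe sets or arrays in some fits. The deviations of same-numbered arrays from the group means correlated at 0.089, 0.37 and 0.22 for replicates 1 to 3. Arrays of different numbers correlated at -0.33 to 0.17. 2D replicate 1 correlated best with 3D replicate 3, and every other array with its own number. Whether the numbers mark a pairing was not tested. With the replicate block the counts were 86 (30 higher, 56 lower) for all probe sets and 0 for the pathway genes, the contrast was 0.64, and the same 4 members were called.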
